A study of Mus musculus with 2 samples.

Results

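Transcripts of 10 regulators of blood stem cell identity, Hlf, Mecom, Meis1, Mllt3, Tcf15, Gata2, Erg, Fli1, Runx1 and Lmo2, were followed in single bone marrow cells of aged mice. They were taken by symbol from the gene rows of the matrices. All 10 were found among 32285 genes, and all 10 were among the 14271 genes tested between cell gates. The cells were LSK cells, the marrow fraction without lineage markers but with Sca-1 and c-Kit on its surface, where haematopoietic stem cells (HSCs) lie beside multipotent progenitors (MPPs). The IC pool came from mice given the iron chelator deferoxamine at 50 mg/kg each day for 7 days in every 4 weeks, over 13 months from an age of about 6 months. The Control pool came from mice given the vehicle HBSS on the same calendar. RNA and 126 surface antibody tags were read from the same cells (CITE-seq) in 1 loading of both pools, which a hashtag antibody told apart. The sources used here do not give the strain, sex or number of the mice.

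The proteins act at several levels of the stem cell programme. Gata2, Runx1, Erg, Fli1 and Lmo2 belong, with Tal1 and Lyl1, to a heptad of factors that bind enhancers together in blood stem and progenitor cells; Lmo2 is a bridging protein that does not bind DNA itself. Hlf, a leucine-zipper factor, Mecom, a zinc-finger protein, and Meis1, a homeodomain factor that works with Pbx and Hox proteins, are required for normal HSC maintenance in mice. Mllt3 reads acylated histones and joins the machinery of transcription elongation, and Tcf15 is a basic helix-loop-helix factor tied to quiescent HSCs in mice.

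The IC pool held 4037 barcodes and 66573361 gene UMIs (unique molecules counted), and the Control pool 4026 barcodes and 63370466 gene UMIs; per sample, some 20000 LSK cells had been sorted. After filtering, 3998 IC cells and 3969 Control cells stayed, with medians of 14455.5 and 13705 UMIs, and no barcode occurred in both pools. By their transcripts, both pools held cells of both sexes: 897 IC cells and 1417 Control cells had Xist, the RNA of the inactive X (Xist-marked cells), and 2542 IC cells and 1952 Control cells had transcripts of Y-linked genes (Y-marked cells). The tags CD135, CD48 and CD150 sorted the cells into an HSC gate (CD150 alone; 1310 IC and 1161 Control cells), an MPP1 gate (none of the tags; 562 and 548), an MPP2 gate (CD48 and CD150; 100 and 92), an MPP3 gate (CD48 alone; 611 and 502) and an MPP4 gate (CD135 without CD150; 1293 and 1510). A further 122 IC cells and 156 Control cells had CD135 with CD150 and were left out of the gate comparisons. The CD135 tag had a median of 6 UMIs in the MPP4 gate of either pool, against 2 in the MPP3 gate. The split of these 2 gates thus rests on few tag counts. The gates went with their marker genes. The summed level of 8 HSC markers was 1353 CPM (UMIs of a gene per 1000000 gene UMIs of the set of cells) in IC cells and 1360.1 CPM in Control cells of the HSC gate, against 92.8 and 113 CPM in the MPP4 gate. The 7 MPP4 and lymphoid markers summed to 1346 CPM in IC cells and 1260.0 CPM in Control cells of the MPP4 gate, and the 7 MPP3 and granulocyte-monocyte markers to 3316 and 3162 CPM in the MPP3 gate. The HSC markers include Slamf1 and the MPP4 markers Flt3, which encode the gating antigens CD150 and CD135.

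Promoter windows from 250 bases before to 50 bases after an annotated start were present in the RefSeq table (GRCm38.p6) for 7 of the 10 genes, 13 windows in all; Tcf15, Fli1 and Lmo2 had none. They are shown for 3 genes whose gate patterns differ: Hlf, highest in the MPP1 gate, Mecom, highest in the HSC gate, and Runx1, highest in the MPP2 gate. For Mecom and Runx1 the start farthest upstream is given. All 3 lie on the minus strand and are written 5′ to 3′ in the direction of transcription. Capitals mark matches, on either strand, to any of 4 motifs of heptad proteins: for ETS proteins CCGGAA, for GATA proteins AGATAA, for RUNX proteins TGTGGT, and for the E-box of Tal1 and Lyl1 dimers CATCTG. No matches overlapped. In mm10 coordinates the genes themselves span chr11:90336535-90390917 (Hlf, ENSMUSG00000003949), chr3:29951296-30509759 (Mecom, ENSMUSG00000027684) and chr16:92601466-92826074 (Runx1, ENSMUSG00000022952), so each window crosses the gene's upstream end.
Hlf, chr11:90390868-90391167, minus strand: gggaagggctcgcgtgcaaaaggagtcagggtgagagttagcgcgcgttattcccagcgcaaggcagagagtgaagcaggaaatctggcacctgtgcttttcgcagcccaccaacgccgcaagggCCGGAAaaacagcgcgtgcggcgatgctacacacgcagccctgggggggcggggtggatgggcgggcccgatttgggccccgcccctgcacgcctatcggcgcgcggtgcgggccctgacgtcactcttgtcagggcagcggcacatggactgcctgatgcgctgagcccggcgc
Mecom, chr3:30509710-30510009, minus strand: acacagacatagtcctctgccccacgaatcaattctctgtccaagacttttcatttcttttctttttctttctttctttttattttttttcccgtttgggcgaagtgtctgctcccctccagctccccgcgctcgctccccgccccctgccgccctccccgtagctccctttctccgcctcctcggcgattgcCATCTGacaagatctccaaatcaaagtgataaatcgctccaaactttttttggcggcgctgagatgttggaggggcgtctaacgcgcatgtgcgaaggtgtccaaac
Runx1, chr16:92826025-92826324, minus strand: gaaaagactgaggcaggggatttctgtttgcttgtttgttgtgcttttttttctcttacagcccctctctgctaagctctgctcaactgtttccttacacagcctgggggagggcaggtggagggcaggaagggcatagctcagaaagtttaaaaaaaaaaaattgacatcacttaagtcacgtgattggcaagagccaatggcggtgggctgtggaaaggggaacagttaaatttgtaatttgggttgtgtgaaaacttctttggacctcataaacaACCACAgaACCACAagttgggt
The Hlf window held 1 ETS match, that of Mecom 1 E-box match and that of Runx1 2 RUNX matches, both downstream of the start. Of the other windows, that of Meis1 held an ETS and a RUNX match, 1 of 3 Erg windows a GATA match, the second Runx1 window an ETS match and the second Mllt3 window an E-box match, while both Gata2 windows held none. Among all 32851 windows of that length, 14.9% held the ETS motif, 11.2% the GATA motif, 16.8% the RUNX motif and 17.2% the E-box.

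The first comparison asked how the 10 genes divide the surface-gated HSCs from their progeny. In the HSC gate 9 of the 10 were higher than in the MPP4 gate and none was lower (edgeR quasi-likelihood test on UMI sums per gate and pool, Benjamini-Hochberg adjusted p under 0.05 over all genes). Among all genes tested, 33.8% were higher and 28.2% lower in that comparison. The median log2 fold of the 10 genes was 0.90, against 0.04 over all genes. Tcf15, Mllt3, Gata2 and Mecom stood apart most, whereas Runx1 and Erg stood 1.14-fold and 1.09-fold higher, the Erg value without passing the test. These folds compare CPM, and MPP4-gate cells were deeper. Per cell, Runx1 and Erg had fewer UMIs in the HSC gate in both pools, while the other members had more. In IC cells Runx1 had 6007 UMIs over 1310 HSC-gate cells and 6436 over 1293 MPP4-gate cells, and Erg 3957 and 4440. In Control cells Runx1 had 5405 over 1161 and 7144 over 1510, and Erg 3600 and 4999. Against the MPP3 gate, 9 were higher and none lower, where 33.5% of all genes were higher and 27.1% lower. Against the MPP1 gate 7 were higher and Hlf was lower, with 13.0% and 14.6% of all genes. Against the MPP2 gate 7 were higher and Runx1 was lower, with 20.5% and 19.8%. MPP3-gate and MPP2-gate cells were deeper too. In IC cells Meis1 had 7347 UMIs over 1310 HSC-gate cells and 682 over 100 MPP2-gate cells. Control cells gave 6149 over 1161 and 721 over 92, so that per cell Meis1 was lower in the HSC gate. Erg was lower per cell than in the MPP3 gate in both pools, and than in the MPP2 gate in Control cells. Other genes called higher against these gates stayed higher per cell. Gata2 and Fli1 had fewer per cell than in the MPP2 gate. The fit held 10 sums, 5 gates in each of 2 pools with the pool as a block, and left 4 residual degrees of freedom. The p-values measure how far the gate differences vary between these 2 pools, which differ in regimen and sex make-up and are not said to be replicates.

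**Figure D1:**
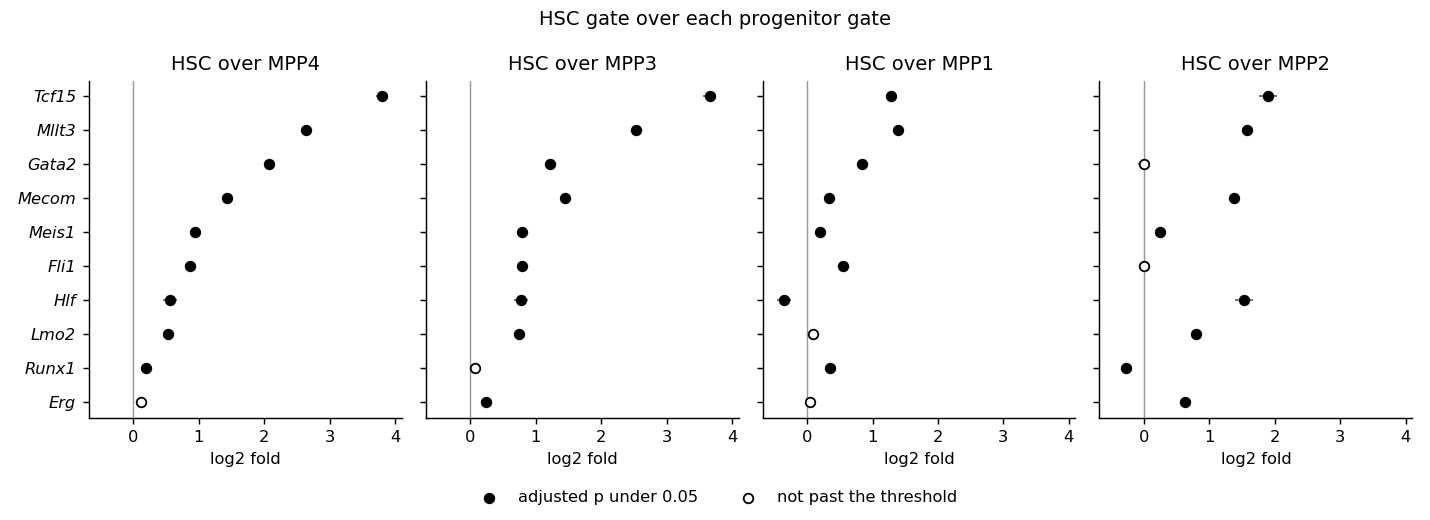
Log2 fold of the HSC gate over the MPP4, MPP3, MPP1 and MPP2 gates for each gene (edgeR, 10 UMI sums; bars are 1 standard error; filled points have an adjusted p under 0.05). Tcf15 and Mllt3 lie farthest to the right against the MPP4 gate, at 3.80 and 2.65, and Hlf is the gene left of 0 against the MPP1 gate, at -0.35.

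Tcf15 showed the steepest gradient of the 10. In the IC pool it stood at 60.0 CPM in the HSC gate, 26.4 CPM in the MPP1 gate, 15.7 CPM in the MPP2 gate, 5.24 CPM in the MPP3 gate and 4.02 CPM in the MPP4 gate. The Control pool gave 59.8, 22.8, 16.5, 4.15 and 4.55 CPM in the same gates. The pools differed little beside the gaps between gates, and the MPP3 and MPP4 gates alone could not be ordered, since their values overlapped between pools. The log2 fold of the HSC over the MPP4 gate was 3.80 ± 0.09 (SE; 13.9-fold, edgeR adjusted p = 2.96e-14), and 1.28 ± 0.08 over the MPP1 gate (adjusted p = 2.14e-08). After each cell was thinned to 5000 UMIs, 25.6% of IC and 26.2% of Control cells of the HSC gate had a Tcf15 UMI, against 1.68% and 3.53% in the MPP4 gate. None of 29 cells with at least 3 T or NK markers, which should lack the gene, had one, which allows a share of up to 11.9%; their median depth was 16540.5 UMIs, against 13304 in IC and 12687 in Control cells of the HSC gate before thinning. Without thinning, 55.0% of IC and 52.5% of Control HSC-gate cells had a Tcf15 UMI.

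Mllt3 followed the same order of gates. Its levels in the IC pool were 255 CPM in the HSC gate, 101 CPM in the MPP1 gate, 87.0 CPM in the MPP2 gate, 42.1 CPM in the MPP3 gate and 41.7 CPM in the MPP4 gate, and in the Control pool 284, 104, 93.4, 50.7 and 44.2 CPM. The HSC gate was above every other gate in each pool, and it exceeded the MPP4 gate 6.26-fold (log2 2.65 ± 0.06, edgeR adjusted p = 1.73e-14). It also exceeded the MPP1 gate, the next highest, by 1.40 ± 0.06 on the log2 scale (adjusted p = 2.32e-10), the largest of the 10 folds against that gate.

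Mecom and Meis1 were highest in the HSC gate as well. Mecom measured 324 CPM in IC and 331 CPM in Control cells of the HSC gate, 267 and 254 CPM in the MPP1 gate, and between 118 and 128 CPM in every other gate and pool. The gates without CD135 and CD48 were thus the high ones. The HSC gate exceeded the MPP1 gate by 0.33 ± 0.05 on the log2 scale (edgeR adjusted p = 9.51e-05) and the MPP4 gate 2.70-fold (1.43 ± 0.05, adjusted p = 1.87e-12). Meis1 stood at 379 CPM in IC and 373 CPM in Control cells of the HSC gate, at 344 and 309.9 CPM in the MPP1 gate, at 297 and 340.2 CPM in the MPP2 gate, at 209 and 225 CPM in the MPP3 gate and at 192 and 199 CPM in the MPP4 gate. Its MPP1 and MPP2 values overlapped between pools. The Meis1 fold over the MPP4 gate was 1.92 (log2 0.94 ± 0.06, edgeR adjusted p = 2.07e-09), and that over the MPP1 gate was small, 0.20 ± 0.06 on the log2 scale (adjusted p = 0.0195), and was not past the threshold without cycling cells (0.05, adjusted p = 0.754) or in Y-marked cells alone (0.16, adjusted p = 0.101). Its excess over the MPP2 gate, 0.24 ± 0.06 (edgeR adjusted p = 0.00764), turned to -0.12 in thinned cells and to -0.13 without cycling cells, and did not pass in Xist-marked cells alone (0.24, adjusted p = 0.0564).

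Hlf was highest in the MPP1 gate, ahead of the HSC gate. In the IC pool it stood at 357 CPM in the HSC gate, 477 CPM in the MPP1 gate, 101 CPM in the MPP2 gate, 243 CPM in the MPP3 gate and 248 CPM in the MPP4 gate. The Control pool gave 387, 474, 158, 189 and 255 CPM. No neighbouring gates in the order MPP1, HSC, MPP4, MPP3, MPP2 overlapped between pools. The step from the MPP4 to the MPP3 gate was not firm, since their counting intervals overlapped in IC cells. It was reversed in Y-marked IC cells (253 and 265 CPM) and in Xist-marked Control cells (170.1 and 191 CPM). The log2 fold of the HSC over the MPP1 gate was -0.35 ± 0.11 (edgeR adjusted p = 0.0243), with values from -0.47 to -0.23 in the 4 sets of cells made by pool and sex marker. That call was lost with DESeq2 (adjusted p = 0.147), in Xist-marked cells alone (0.0877 in edgeR) and without cycling cells (0.0536 in edgeR), at log2 values from -0.37 to -0.30. Over the MPP4 gate Hlf was 1.48-fold higher in the HSC gate (log2 0.57 ± 0.11, edgeR adjusted p = 0.000304). Without cycling cells that difference was 0.20 (edgeR adjusted p = 0.253).

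Of the heptad members among the 10, Gata2 had the widest range. It measured 249 CPM in IC and 249.8 CPM in Control cells of the HSC gate, 142 and 136 CPM in the MPP1 gate, 236 and 266 CPM in the MPP2 gate, 94.4 and 122 CPM in the MPP3 gate and 58.9 and 60.5 CPM in the MPP4 gate. The HSC and MPP2 gates, which share CD150, could not be ordered (log2 -0.00 ± 0.08, edgeR adjusted p = 0.981), while the fold over the MPP4 gate was 4.19 (log2 2.07 ± 0.08, adjusted p = 5.70e-12). Gata2 is also the factor of the early megakaryocyte, erythroid and mast cell lineages.

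The related ETS factors Erg and Fli1 had different gate profiles. Fli1 was at 264 CPM in IC and 283 CPM in Control cells of the HSC gate and at 269 and 277 CPM in the MPP2 gate, against 192 and 181 CPM in the MPP1 gate, 149.9 and 166 CPM in the MPP3 gate and 148 and 153 CPM in the MPP4 gate. The CD150-positive gates were thus the high ones for Fli1, and the HSC gate exceeded the MPP4 gate 1.82-fold (log2 0.86 ± 0.05, edgeR adjusted p = 1.17e-09). Erg was at 204 CPM in IC and 218 CPM in Control cells of the HSC gate, at 205 and 203 CPM in the MPP1 gate, at 117 and 158 CPM in the MPP2 gate, at 174 and 184 CPM in the MPP3 gate and at 190.1 and 198 CPM in the MPP4 gate. Its MPP2 cells were the lowest, 1.55-fold below the HSC gate (edgeR adjusted p = 1.45e-05), a call that was lost without cycling cells (0.24, adjusted p = 0.347). Over the MPP4 gate the Erg difference of 0.12 ± 0.06 did not pass (edgeR adjusted p = 0.102), and it did pass when cells near a gate threshold were left out (0.18, adjusted p = 0.0156), without the MPP2 gate (0.0117) and without the filter on low counts (0.0417).

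Runx1 and Lmo2 were the flattest after Erg. Runx1 stood at 309.9 CPM in IC and 328 CPM in Control cells of the HSC gate and peaked in the MPP2 gate, at 376 and 398 CPM, with 257 and 241 CPM in the MPP1 gate, 286 and 322 CPM in the MPP3 gate and 276 and 283 CPM in the MPP4 gate. The log2 fold of the HSC over the MPP2 gate was -0.28 ± 0.05 (edgeR adjusted p = 0.000781), although this was not past the threshold in Y-marked cells alone (-0.21, adjusted p = 0.139). Its excess over the MPP4 gate was 0.19 ± 0.05 (edgeR adjusted p = 0.00331). It was 0.04 without cycling cells (adjusted p = 0.691), 0.11 in thinned cells (0.110) and 0.11 in Xist-marked cells alone (0.181). Lmo2 was high in the same gates as Mecom, with 961 CPM in IC and 1031 CPM in Control cells of the HSC gate and 923 and 957 CPM in the MPP1 gate, against 565 to 707 CPM in the other gates. The Lmo2 fold over the MPP4 gate was 1.44 (log2 0.52 ± 0.04, edgeR adjusted p = 1.43e-08), and HSC and MPP1 cells were not told apart (0.08 ± 0.04, adjusted p = 0.127).

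**Figure D2:**
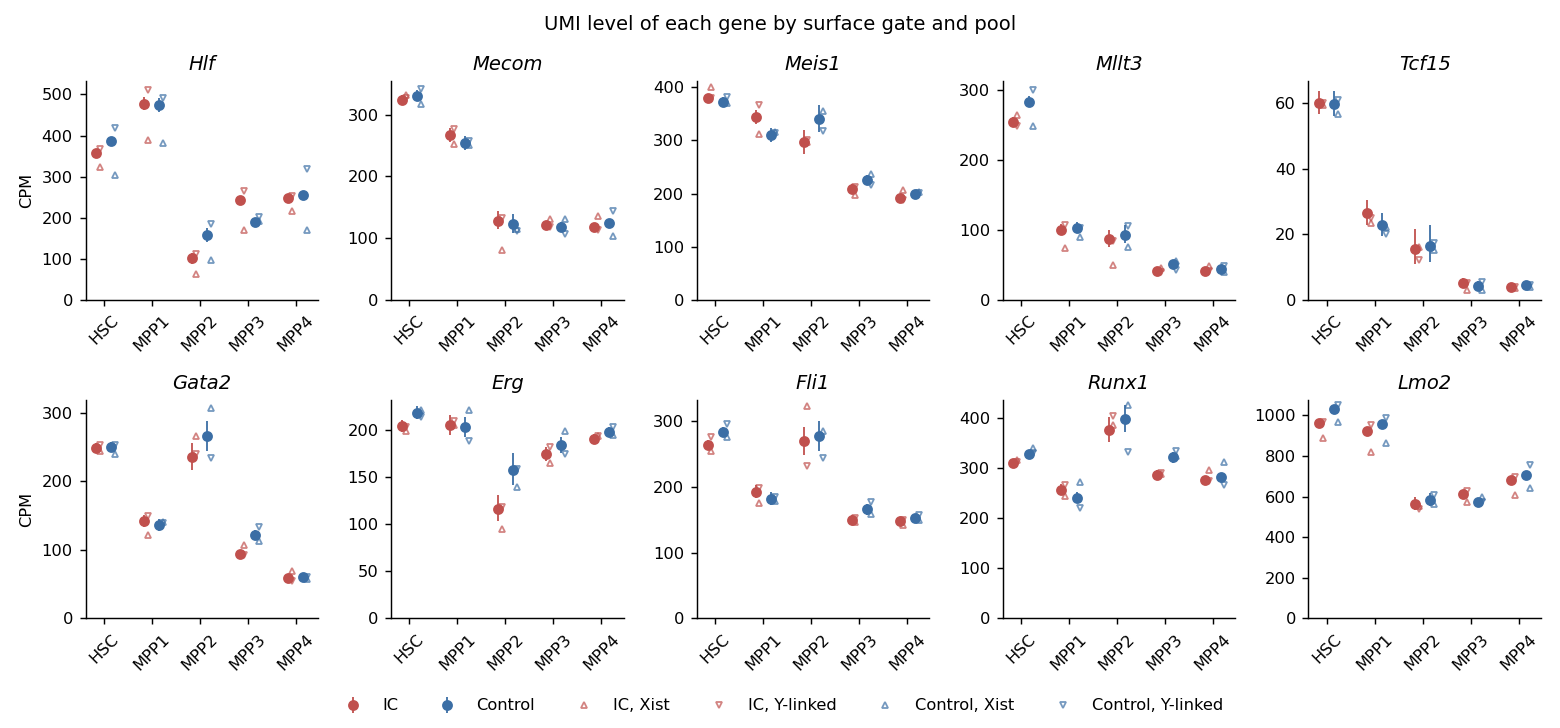
UMI level of each gene (CPM, axes from 0) in the 5 gates, IC left of Control; filled points are pools with exact 95% intervals of counting error, and small triangles are Xist-marked (up) or Y-marked (down) cells. Tcf15 and Mllt3 step down from the HSC gate, Hlf peaks in the MPP1 gate, and Runx1 peaks in the MPP2 gate.

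The remaining gates gave finer differences. Against the MPP3 gate the log2 folds of the HSC gate were close to those against the MPP4 gate for Tcf15 (3.66 ± 0.10), Mllt3 (2.54 ± 0.06) and Mecom (1.45 ± 0.05), and smaller for Gata2 (1.21 ± 0.08, edgeR adjusted p = 3.21e-09). Runx1 was the member that did not pass there (0.07 ± 0.05, edgeR adjusted p = 0.241), and Erg (0.24 ± 0.06, adjusted p = 0.00471) did not pass in Xist-marked cells alone (0.0877) or without cycling cells (0.0546). Against the MPP2 gate, which shares CD150 with the HSC gate, Tcf15 (1.90 ± 0.14), Mllt3 (1.58 ± 0.07), Hlf (1.53 ± 0.14) and Mecom (1.38 ± 0.06) had the widest folds. Fli1 did not differ measurably there (0.00 ± 0.06, edgeR adjusted p = 0.988). It passed in opposite directions under 2 settings, at -0.26 in thinned cells (edgeR adjusted p = 0.0285) and at 0.27 in Y-marked cells alone (0.0314). The folds over the MPP4 gate were also computed in Xist-marked and Y-marked cells of each pool, 4 sets that share no cell. They ran from 3.76 to 4.04 for Tcf15, from 2.47 to 2.66 for Mllt3 and from 1.82 to 2.23 for Gata2. For Hlf they ran from 0.39 to 0.83. All 10 genes were above 0 in 4 of 4 sets, and the share of all genes that were so was not computed.

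Shares of cells with a UMI, after thinning to 5000 UMIs, are given with those of the cells with T or NK markers. Mllt3 was seen in 67.5% of IC and 70.0% of Control cells of the HSC gate, against 20.3% and 20.3% in the MPP4 gate; the 29 cells with T or NK markers gave 20.7% (95% Clopper-Pearson interval 7.99 to 39.7). Before thinning, 53.1% of 32 such cells had an Mllt3 UMI and 90.6% a Fli1 UMI, so they may express some of the genes themselves, and the MPP4 share of Mllt3 was not told apart from theirs. Gata2 was seen in 69.7% of IC and 67.7% of Control HSC-gate cells, 25.2% and 25.9% of MPP4-gate cells and 13.8% of the cells with T or NK markers (3.89 to 31.7). Mecom stood at 74.4% and 75.0% in the HSC gate, against 39.7% and 40.5% in the MPP4 gate. Hlf was seen in 74.4% of IC and 75.7% of Control cells of the HSC gate, below its 87.4% and 81.2% in the MPP1 gate. Erg, in contrast, was seen in nearly equal shares, 60.5% of IC and 62.5% of Control cells of the HSC gate against 60.2% and 61.5% in the MPP4 gate. Runx1 was seen in 73.6% and 74.8% against 68.8% and 68.6%, and Lmo2 in over 93.8% of cells in both gates. The cells with T or NK markers gave 13.8% for Mecom, 20.7% for Hlf, 27.6% for Erg, 44.8% for Runx1 and 34.5% for Lmo2. Before thinning, the median depth of the MPP4 gate was 16505 UMIs in IC and 14511.5 UMIs in Control cells.

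Profiles over the 10 gate sums fell into related shapes, which are given as a description, since all sums come from 1 loading and each gate gives a sum in both pools. Pearson's r of log2(CPM + 1) was 0.98 for Mllt3 with Tcf15, 0.95 for Gata2 with Fli1, 0.95 for Mecom with Lmo2 and 0.89 for Hlf with Erg. It was -0.27 for Erg with Fli1 and -0.77 for Hlf with Runx1. Among 11069 genes with at least 500 UMIs, the profiles most like that of Hlf were Lrrn4, C030037D09Rik and Gstt2, with r from 0.98 to 0.99 over the 10 sums. For Mllt3 they were Ppp1r15a, Cd81 and Cracr2b, for Tcf15 Srxn1, Pdzk1ip1 and Obsl1, and for Mecom Amacr, Anxa5 and Ftl1, all at 0.99 or above. Gata2 was nearest to Apoe, Fry and Cd55, Fli1 was near Slc25a24 and Gp9, and Meis1 was nearest to Prkg1, Aldh1a1 and Trpc6, with r of 0.99 or more after rounding. Erg was nearest to Camk2d, Fam92a and Ppp1r13b (0.98), Lmo2 to Ldhb, Chrnb1 and Map1lc3b (0.99), and Runx1 was near Vps33a and Kpna1 (0.95 and 0.94).

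The cofactors and relatives of the 10 genes were read from the same fit, HSC over MPP4 gate. In that comparison 33.8% of all genes tested were higher and 28.2% lower. Of the heptad, 5 of 7 were higher and none lower (median log2 fold 0.52), 4 of those 5 being among the 10 genes and the fifth being Tal1 (1.11 ± 0.06 on the log2 scale, edgeR adjusted p = 2.53e-10); Lyl1 did not pass (0.01). Of the 3 GATA relatives and cofactors tested, all were higher (median 1.68): Zfpm1, a GATA cofactor, by 1.97, Gata1 by 1.68 and Gata3 by 1.29, while Zfpm2 was too low to test. The TALE partners of Meis1 had 4 of 7 higher and 2 lower, with a median of 1.88. Meis2, Meis3 and Pbx3 were among the higher ones, by 6.45, 2.79 and 1.88, and Pbx4 and Pknox1 lower, at -0.69 and -0.77. Meis2 rested on 263 UMIs in all.

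Other families were mixed, and several of their counts lay near the shares of all genes, 33.8% higher and 28.2% lower. The ETS family other than Erg and Fli1 had 3 of 11 higher and 6 lower (median -0.16), with Ets2 at 0.98 and Spi1, the myeloid and lymphoid factor PU.1, at -1.36. In the RUNX family 2 of 6 were higher and 3 lower (median -0.24): the corepressor Runx1t1 stood at 23.0 CPM in IC and 23.2 CPM in Control cells of the HSC gate against 0.471 and 0.356 CPM in the MPP4 gate, a log2 fold of 5.78, while Runx3 was at -1.36, Runx2 at -1.06 and the shared partner Cbfb at -0.39. Of the PRDM relatives and cofactors of Mecom, 3 of 6 were higher (median 0.28), led by Prdm16 (1.92), and Prdm10 was lower (-0.22). The elongation and DOT1L partners of Mllt3 had 5 of 11 higher and 4 lower (median 0.07), with Ell2 at 1.19 and Aff3 at -0.90. Of the LIM and E-protein partners 3 of 8 were higher and 4 lower (median -0.05), with Id1 at 2.33 on 181 UMIs and Lmo4 at -0.74. Of the 3 leucine-zipper relatives of Hlf none was higher (median -0.19), and Nfil3 was lower (-1.17).

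The granulocyte-monocyte factors had 4 of 7 lower in the HSC than in the MPP4 gate (median -1.49), with Irf8 at -4.66 and Cebpa at -4.39, and 1 higher, Cebpb. The lymphoid factors had 5 of 8 lower (median -1.41), with Satb1 at -5.37 and Sox4 at -1.48, and 1 higher, Bcl11a, at 0.19. The erythroid and megakaryocyte factors had 5 of 6 higher and none lower (median 0.80), among them Gfi1b (1.76), Tal1 and Nfe2 (0.77), while the erythroid factor Klf1 did not pass. Of 18 other HSC genes 16 were higher, with a median log2 fold of 2.98, led by Vwf (6.60) and Sult1a1 (6.03), and Hoxa9 and Ctla2a were lower. That list holds Slamf1, which encodes the gating antigen CD150, and Gfi1b and Tal1 each stand in 2 lists.

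The next comparison asked how the genes vary among HSC-gate cells themselves. Cells with a score above 0 for S-phase or G2M genes, called cycling here, made up 22.6% of IC and 21.0% of Control cells of the HSC gate, against 60.3% and 55.1% of the MPP4 gate. Cycling cells of the HSC gate had 6 of the 10 genes at lower CPM than the other cells in both pools, by log2 ratios past 0.32. That is the threshold of size used wherever no test was made, and none of the 10 was higher past it. Among all genes with at least 200 UMIs there, 20.3% were lower in the same way. The share of all genes higher past it was not computed. No test was made, since cells of a pool are not samples.

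Mllt3 and Hlf had the widest gaps. Mllt3 was at 114 CPM in cycling and 326 CPM in other HSC-gate cells of the IC pool (log2 -1.52, 95% counting interval -1.63 to -1.41), and at 127 and 358 CPM in the Control pool (-1.49, -1.61 to -1.37). Hlf was at 187 CPM in cycling and 443 CPM in other cells of the IC pool (-1.24), and at 186 and 483 CPM in the Control pool (-1.37). Both pools thus gave nearly the same gap for either gene. Hlf was at lower CPM in cycling cells of every gate and pool. The log2 values were -0.75 in IC and -1.04 in Control cells of the MPP1 gate. In IC cells of the MPP4 gate it was at 190.4 CPM in cycling and 417 CPM in other cells. Erg (-0.77 in IC and -0.68 in Control cells), Lmo2 (-0.60 and -0.71), Mecom (-0.53 in both) and Tcf15 (-0.39 and -0.52) lay lower in cycling HSC-gate cells by less. These are ratios of CPM, not of UMIs per cell. Mecom had 1632 UMIs over 296 cycling and 4654 over 1014 other cells of the IC pool. The Control pool gave 1356 over 244 and 4099 over 917, so that per cell Mecom was higher in cycling cells. Cycling cells were thus deeper, and the CPM gaps of Erg, Lmo2 and Tcf15 do not show fewer UMIs per cell. Hlf, with 1220 and 5702 UMIs in the same IC cells and 992 and 5396 in Control ones, stayed lower per cell. The log2 ratios of Gata2 and Meis1 stayed between -0.16 and -0.03. Fli1 (0.26 and 0.27) and Runx1 (0.14 and 0.28) were above 0 in cycling cells, so that the ETS pair went opposite ways in CPM.

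The CD150 tag, split into terciles within each pool of the HSC gate, followed Mllt3 most closely. Mllt3 was at 358 CPM in the upper and 171 CPM in the lower tercile of IC cells (log2 1.06, 0.96 to 1.17), and at 441 and 170.2 CPM in Control cells (1.37, 1.26 to 1.48). Tcf15 (0.60 in IC and 0.68 in Control cells), Mecom (0.39 and 0.45) and Erg (0.33 and 0.51) also passed 0.32 in both pools, making 4 of 10. Of all genes with at least 200 UMIs, 8.31% did so in that direction. The upper tercile held fewer cycling cells, 10.8% in the IC and 5.43% in the Control pool, against 33.9% and 35.9% of the lower tercile. With cycling cells left out before the terciles were cut, Mllt3 was still past that size (0.74 in IC and 1.01 in Control cells), as was Tcf15 (0.37 and 0.57), while Mecom came to 0.26 and 0.21 and Erg to 0.09 and 0.29. Hlf, at 0.24 and 0.37 over all HSC-gate cells, came to -0.01 and -0.09 without cycling cells. Meis1 and Fli1 did not follow the tag (between -0.07 and 0.02), and Runx1 was slightly lower in the upper tercile (-0.08 and -0.18). Across terciles of the CD34 tag none of the 10 genes passed a log2 ratio of 0.32 in both pools. Of all genes with at least 200 UMIs, 3.59% passed it in either direction. The widest CD34 gaps were -0.22 in IC and -0.32 in Control cells for Hlf and -0.27 and -0.26 for Mllt3, lower in the upper tercile. That tercile held more cycling cells, 26.1% in the IC and 26.4% in the Control pool, against 20.2% and 16.8% of the lower one. Without cycling cells the CD34 gaps were -0.07 in IC and -0.10 in Control cells for Hlf and -0.17 and -0.05 for Mllt3.

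**Figure D3:**
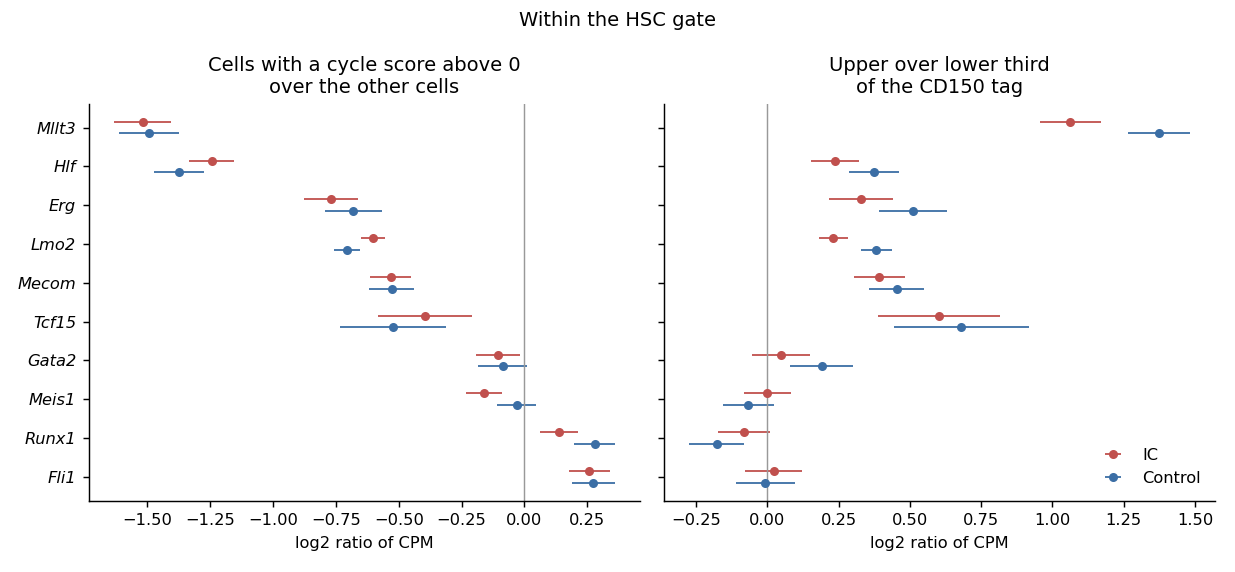
HSC-gate cells: log2 ratio of CPM in cycling over other cells (left) and in the upper over the lower tercile of the CD150 tag (right), for IC and Control cells; bars are exact 95% intervals of counting error. Mllt3 is at -1.52 and -1.49 on the left and at 1.06 and 1.37 on the right, while Fli1 is above 0 on the left and near 0 on the right.

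Cells in which Tcf15 was seen differed little in the other 9 genes. After thinning, 326 IC cells with a Tcf15 UMI in the HSC gate were set beside 945 without, and 295 Control cells beside 830. The log2 ratios lay between -0.16 and 0.13 in both pools, apart from Fli1, which was at -0.30 (-0.47 to -0.13) in IC cells and at 0.13 (-0.04 to 0.29) in Control cells. A count of 0 at 5000 UMIs does not show that a cell lacks the transcript. The number of the 10 genes with at least 1 UMI in a thinned cell had a median of 7 in the HSC gate of either pool, 6 in the MPP1 gate and 5 in the MPP4 gate, against 2 in the 29 cells with T or NK markers. At least 6 were seen in 82.7% (95% Clopper-Pearson interval 80.5 to 84.7) of IC and 84.1% (81.8 to 86.2) of Control cells of the HSC gate, and in 37.1% (34.4 to 39.8) and 36.0% (33.6 to 38.6) in the MPP4 gate.

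The study's own question was whether long iron chelation changed these cells. With 1 pool per condition there is no replicate and no test, intervals cover counting error alone, and fewer positive cells and less RNA per cell are not separated in a summed level. Over all LSK cells none of the 10 genes passed a log2 ratio of 0.32 between IC and Control cells. Of all genes with at least 200 UMIs, 3.03% did, and the shares given for the gates rest on the same limit. The log2 ratios of the 10 genes ran from -0.07 (Erg, 189.6 CPM in IC and 199 CPM in Control cells) to 0.11 (Tcf15, 24.3 and 22.5 CPM). These ratios also carry gate make-up, whose part was not tested. The HSC gate held 32.8% of IC and 29.3% of Control cells, and the MPP4 gate 32.3% and 38.0%. Within the HSC gate the Tcf15 log2 ratio was 0.0048. In the HSC gate none passed either, with 3.12% of all genes past that size, and 8 of the 10 were below 0. For this gate and those that follow, the share of all genes on either side of 0 was not computed. Mllt3 had the widest ratio there, 255 CPM in IC and 284 CPM in Control cells (0.897, 95% counting interval 0.862 to 0.934), followed by Hlf, 357 and 387 CPM (0.922, 0.891 to 0.954). Meis1, Tcf15, Gata2 and Mecom had intervals that included 1. In Xist-marked HSC-gate cells the Mllt3 ratio was above 1 (log2 0.09, with an interval from -0.02 to 0.20), and in Y-marked cells it was below (-0.27, -0.34 to -0.19).

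The MPP1 gate had none of the 10 past that size, with 6.25% of all genes, and 8 of 10 above 0, the widest being Tcf15 at 26.4 CPM in IC and 22.8 CPM in Control cells (log2 0.21, -0.09 to 0.52). In the MPP4 gate none passed, with 2.82% of all genes, and all 10 lay below 0, from -0.18 to -0.04. These small values did not keep their signs: without cycling cells Hlf was at 0.09, Mecom at 0.10, Meis1 at 0.02, Gata2 at 0.19 and Lmo2 at 0.05, and with gate thresholds set in each pool Hlf, Mecom, Meis1, Gata2 and Tcf15 were above 0. The 6 erythroid markers, all with UMIs there, summed to 56.8 CPM in IC and 589 CPM in Control cells of that gate, and their part in these values was not tested. The small MPP2 gate had 2 past that size, with 8.63% of all genes that had at least 200 UMIs there. Hlf was at 101 CPM in IC and 158 CPM in Control cells (232 and 334 UMIs; ratio 0.640, 0.539 to 0.759), and Erg at 117 and 158 CPM (0.739, 0.627 to 0.871). Both stayed below 0 in either sex-marker set, and without cycling cells, with 14 IC and 21 Control cells left, Hlf was at -1.36 on the log2 scale. Cycling cells made up 86.0% of IC and 77.2% of Control cells of that gate, and their part in the result was not tested.

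In the MPP3 gate Hlf and Gata2 passed that size in opposite directions, and Tcf15 passed it on 63 IC and 41 Control UMIs with an interval that included 1; 5.43% of all genes with at least 200 UMIs passed. Hlf was at 243 CPM in IC and 189 CPM in Control cells (1.28, 1.21 to 1.36). It was higher in Y-marked IC cells, 265 CPM against 202 CPM in Control cells, and not in the Xist-marked ones, 170.1 CPM against 191 CPM. Gata2 was at 94.4 CPM in IC and 122 CPM in Control cells (0.775, 0.714 to 0.841), with log2 values of -0.54 in Y-marked cells and -0.09 in Xist-marked cells. Without cycling cells, with 157 IC and 147 Control cells left, the Gata2 value was 0.02, and Hlf (0.49), Mecom (0.68) and Lmo2 (0.39) were the members past that size, where 13.2% of all genes with at least 200 UMIs passed. All 4 mast cell and basophil markers had UMIs in that gate, and summed to 99.9 CPM in IC and 199 CPM in Control cells; their part in the Gata2 result was not tested. With both sexes weighted equally none of the 10 passed in that gate.

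**Figure D4:**
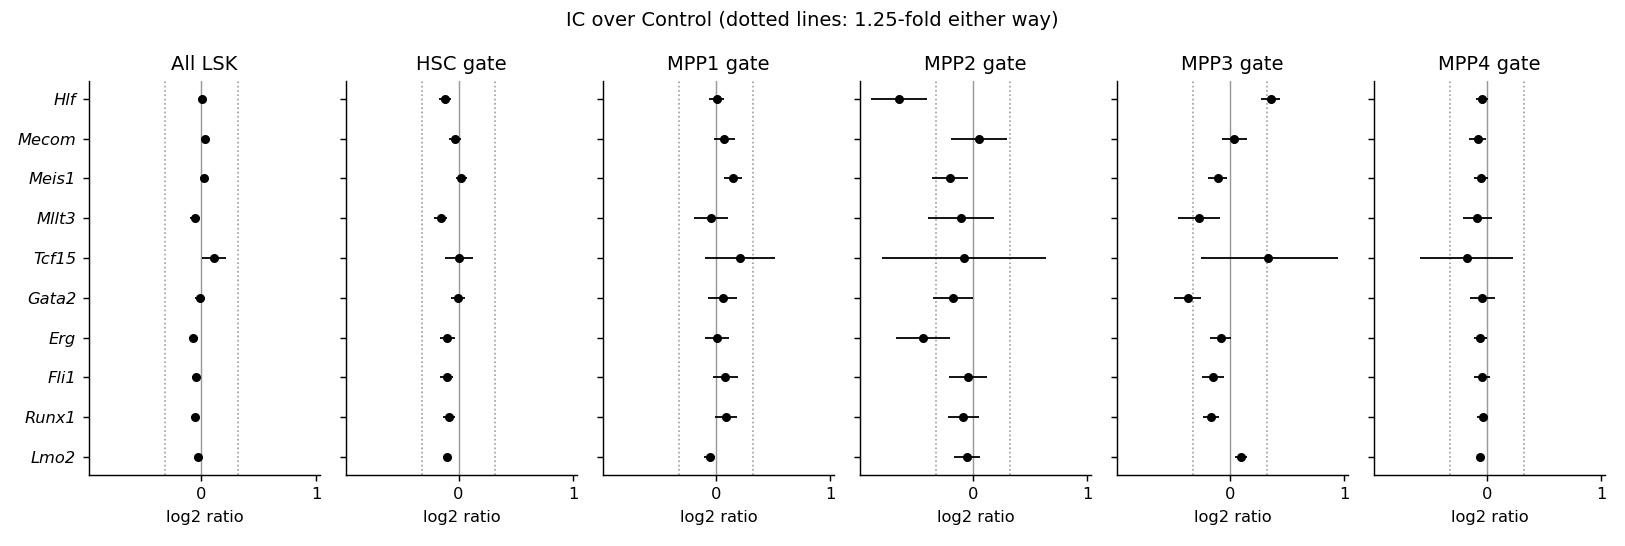
Log2 ratio of CPM, IC over Control, in all LSK cells and in each gate; bars are exact 95% intervals of counting error with 1 pool per condition, and dotted lines mark a log2 ratio of 0.32 either way. Points lie between the lines in all LSK cells and in the HSC, MPP1 and MPP4 gates, while Hlf is at -0.64 in the MPP2 gate and at 0.36 in the MPP3 gate.

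For Hlf, Mecom, Mllt3 and Gata2 the near-zero ratios of whole pools held opposite values in the sex-marker sets. How large a share of all genes did so was not computed. In the MPP4 gate, Xist-marked cells had 217 CPM of Hlf in the IC and 170.1 CPM in the Control pool (log2 0.35), while Y-marked cells had 253 CPM in the IC and 319 CPM in the Control pool (-0.33). Mecom behaved alike, at 137 CPM in the IC and 104 CPM in the Control pool for Xist-marked cells (0.39), and at 113 CPM in the IC and 144 CPM in the Control pool for Y-marked cells (-0.35). In the IC pool Y-marked cells thus had more Hlf but less Mecom than Xist-marked cells, whereas in the Control pool they had more of both. Cycling cells made up 63.0% of IC and 59.4% of Control Xist-marked MPP4-gate cells, and 61.9% and 54.7% of the Y-marked ones. Erg, Fli1 and Lmo2 stayed between -0.12 and -0.01 in both sets. With unknown numbers of mice behind each set, animal, sex and regimen cannot be told apart.

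**Figure D5:**
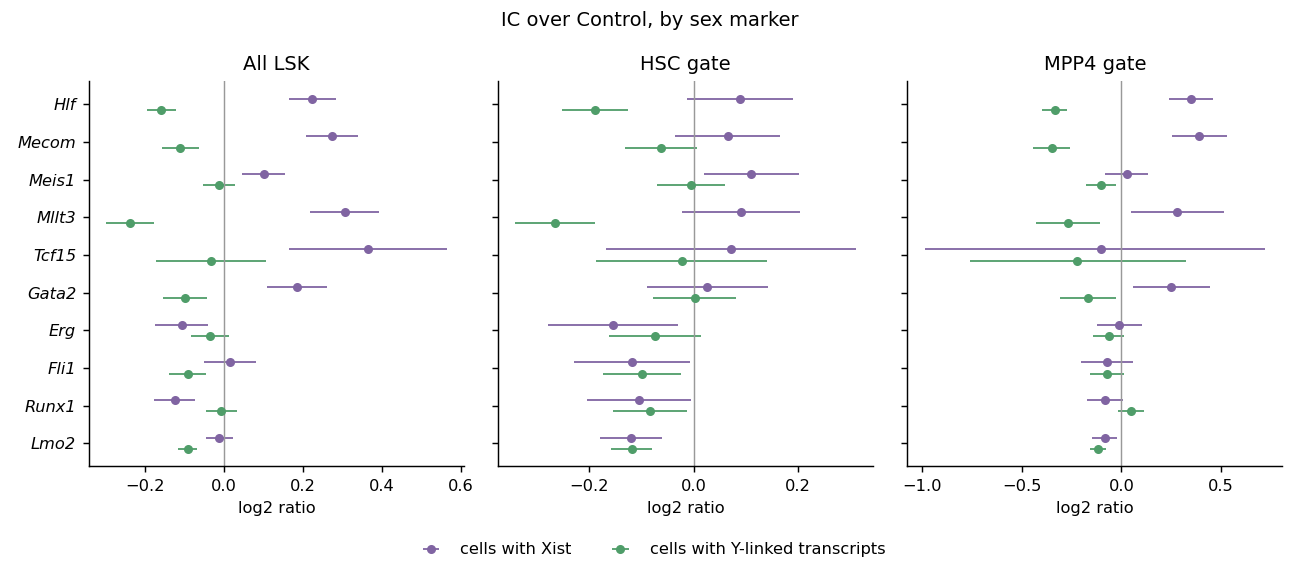
Log2 ratio of CPM, IC over Control, in Xist-marked cells and in Y-marked cells, for all LSK cells and the HSC and MPP4 gates; bars are exact 95% intervals of counting error. In the MPP4 gate Hlf is at 0.35 in Xist-marked and -0.33 in Y-marked cells, and Mecom at 0.39 and -0.35.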

How the data were processed

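The deposited matrices, 1 per condition, hold raw UMI counts per gene or tag and cell, not normalized by the authors. Cell Ranger 7.0.0, Seurat 4.3.0 and mm10 were named in the submitters' processing notes, and Cell Ranger 7.0.1 per the file headers; how barcodes were filtered and assigned to hashtags is not stated there. Each matrix was given its condition by its name; the matching hashtag was the higher one in 4037 of 4037 IC and 4025 of 4026 Control barcodes. Library sizes are the total gene UMIs given with the results.

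Cells were kept from 500 genes upward if less than 10% of UMIs were mitochondrial (39 IC and 57 Control barcodes removed). No doublet caller was run; 52 IC and 35 Control cells with at least 2 UMIs each of Xist and Y-linked genes stayed in. Xist-marked cells had 2 or more Xist UMIs and none from 4 Y-linked genes, and Y-marked cells had 1 or more from these and no Xist. Tag levels, as log(count + 1), were centred per cell over 126 tags, and each gate tag was split by a mixture of 2 normal distributions over both pools; 33.0% of IC and 32.8% of Control cells lay within 0.25 of a threshold. Cycle scores used 43 S and 52 G2M genes, none of them among the 10 described.

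Counts were summed per gate and pool and tested with edgeR 4.0.16 (glmQLFit, filterByExpr, pool as a block, total UMIs as library size), after the fit had been tested on simulated data; DESeq2 1.42.0 was an alternative. CPM ratios carry exact conditional binomial 95% intervals, levels exact Poisson and shares exact Clopper-Pearson intervals, for counting error alone; a count of 0 was read against 3 counts or the upper interval bound. All 10 genes are given, and up to 4 called genes per list, those with the largest fold; Lyl1, Klf1, Pbx4, Pknox1, Bcl11a, Cebpb, Hoxa9 and Ctla2a were named after their values were seen. Likeness is Pearson's r of log2(CPM + 1). Of the genes these rules name, 2 are not reported here. The genes, lists and tests were chosen with earlier results of these data known, and the split by cycle score within the HSC gate, the terciles without cycling cells, the motifs and the 3 promoters were chosen after values had been seen. Coordinates are those of RefSeq GRCm38.p6, the assembly behind mm10.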

Additional observations from a re-analysis of the deposited data

Results flagged for a closer look

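Ratios of IC over Control cells had opposite signs, with counting intervals on opposite sides of 1, in Xist-marked and Y-marked cells for 4 genes. The share of all genes that did so was not computed, so this is not shown to be particular to these genes. None of these differences was tested, since each set comes from 1 pool per condition. Over all LSK cells the log2 ratio of Hlf was 0.22 in Xist-marked and -0.16 in Y-marked cells, that of Mecom 0.27 and -0.11, that of Mllt3 0.31 and -0.24, and that of Gata2 0.19 and -0.10. In the MPP4 gate the values were 0.35 and -0.33 for Hlf, 0.39 and -0.35 for Mecom, 0.28 and -0.27 for Mllt3, and 0.25 and -0.17 for Gata2. In the MPP3 gate Hlf had the reverse pattern, -0.17 in Xist-marked and 0.39 in Y-marked cells. Cycling cells made up 47.6% of Xist-marked LSK cells in the IC and 51.7% in the Control pool, and 48.5% and 42.1% of Y-marked ones; their part in these values was not tested.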

How the results depend on the processing

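The number of the 10 genes higher in the HSC gate stayed within 1.5 times under every setting run, and no member's called fold over the MPP4 gate changed sign. Counts that moved more, values that changed sign and the widest other moves are given by setting, and the cause was not tested.

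In thinned cells, genes higher and lower in the HSC gate numbered 1075 and 1205 against the MPP1 gate and 1380 and 1678 against the MPP2 gate (1855, 2078, 2929 and 2829 in the report's fit), and 3031 and 2882 were higher than in the MPP4 and MPP3 gates (4817 and 4786). Of the 10 genes, 2 were then lower than in the MPP2 gate and 1 than in the MPP3 gate, Runx1 (-0.16). In Xist-marked cells alone 2947 genes were higher and 2658 lower than in the MPP4 gate (4020 lower in the report's fit), 2763 and 2424 than in the MPP3 gate (3869 lower), 857 and 895 than in the MPP1 gate, and 1799 and 1707 than in the MPP2 gate. In Y-marked cells alone 1370 were lower than in the MPP1 gate, 1748 higher and 1852 lower than in the MPP2 gate, and 0 of the 10 genes were lower than in the MPP2 gate. Without cycling cells 2803 were higher than in the MPP4 gate, 2631 and 1966 higher and lower than in the MPP3 gate, and 523 and 510 than in the MPP2 gate. DESeq2 gave 1179 genes lower than in the MPP1 gate. With DESeq2, in Xist-marked cells and without cycling cells, 0 of the 10 genes were lower than in the MPP1 gate.

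Small log2 values changed sign, among them 1 past the threshold in the report's fit, Meis1 over the MPP2 gate (0.24). Fli1 over the MPP2 gate was -0.0050 with DESeq2, -0.012 with no cell filter, -0.015 with gate thresholds set in each pool, -0.083 without cells near a threshold, -0.26 in thinned cells, -0.19 in Xist-marked cells and -0.15 without cycling cells. Of these the value in thinned cells passed the threshold (edgeR adjusted p = 0.0285). In Y-marked cells Fli1 passed on the other side of 0, at 0.27 (edgeR adjusted p = 0.0314). Meis1 over the MPP2 gate was -0.12 in thinned cells and -0.13 without cycling cells, Gata2 0.087 in Y-marked cells, and Erg over the MPP1 gate -0.042 in thinned cells and -0.025 in Xist-marked cells. From 1 pool at a time Erg over the MPP1 gate ran from -0.0045 to 0.11, Fli1 over the MPP2 gate from -0.029 to 0.032 and Gata2 from -0.089 to 0.081.

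Of IC over Control values in the MPP3 gate, Hlf was -0.17 in Xist-marked cells, Gata2 0.023 without cycling cells, and Tcf15 -0.60 in thinned cells, -0.085 in Y-marked cells and -0.020 with both sexes weighted equally. The number of the 10 genes past a log2 ratio of 0.32 was 0 in the MPP3 gate in Xist-marked cells or sexes weighted equally. In Xist-marked cells it was 1 in all LSK cells (5.15% of all genes with at least 200 UMIs passed under that setting), 4 in the MPP2 gate (11.9%; 1 of the 4 with 200 UMIs) and 2 in the MPP4 gate (5.74%). In Y-marked cells it was 4 in the MPP2 gate (11.9%; 2 with 200 UMIs) and 2 in the MPP4 gate (4.21%). Without cycling cells it was 5 in the MPP2 gate (23.4%; 0 with 200 UMIs). It was 1 in thinned cells in the MPP1 (6.80%), MPP2 (8.04%) and MPP4 gates (3.72%), and 1 without cells near a threshold in the same gates (7.24%, 13.2% and 3.14%). Without cycling cells the MPP2 gate gave Tcf15 -2.13, Mllt3 -1.12 and Gata2 0.65. From 1 pool at a time the log2 fold of the HSC over the MPP3 gate ran from 0.56 to 1.03 for Hlf, and that over the MPP2 gate from 0.47 to 0.81 for Erg. The terciles without cycling cells, an alternative chosen after seeing the data, gave Hlf -0.011 in IC and -0.094 in Control cells for CD150, and Mecom 0.066 and Lmo2 0.0058 in IC cells for CD34.

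No paired analysis was possible because the labels number no replicates; the pool was a block throughout. Depth limits Tcf15 most, with 3044 UMIs in all, and the MPP2 gate with 100 IC and 92 Control cells. One pool per condition, of unstated numbers of mice, leaves IC over Control values without a replicate check.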
